A study of Mus musculus and Rattus norvegicus with 26 samples.

Results

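The presynaptic active zone genes Rims1, Rims2, Bsn, Pclo, Erc1, Erc2, Unc13a, Unc13b and Unc13c were followed through 6 lists of intron sequence found in RNA of rodent cells, and all 9, of 13695 genes in the lists, had a contig in at least 1 list. The group was chosen by measured reads: it was built around Rims1, whose intron 2 was the 5th most read of 10568 introns in mouse neuron somas, and the other genes were joined to it by function. Members were found as contigs filed under their gene symbol, which gave 289 of 112345 contigs and 157 of 85860 listed introns, an intron being counted once in each list that held it. A contig is a stretch of intron covered by reads that lay no more than 500 nt apart, and the files give 1 read count for each intron of a RefSeq transcript, however many contigs it holds. Since reads chose Rims1, its levels are given as a description, and no test was possible for any gene because each list pools libraries of its condition.

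The study asked which introns leave sequence in RNA outside the nucleus. Dendrites (3 mouse and 2 rat libraries) and single somas (3 mouse and 3 rat libraries) were cut by hand from cultured hippocampal neurons of embryonic day 18 C57BL/6 mice and Sprague-Dawley rats. Single interscapular brown adipose tissue (BAT) cells came from CD-1 mice at embryonic day 17.5 (6 libraries), and single ventricular cardiomyocytes from embryos at day 14.5 (9 libraries) that carried the Fucci transgene mAG-hGem, a green cell cycle reporter under the CMV promoter, on a C57BL/6 background. All RNA went through 3 rounds of antisense RNA (aRNA) amplification. A dendrite library joins many processes, and a process of a cultured neuron that is taken as a dendrite may hold stretches of axon; the somas, BAT cells and cardiomyocytes include the nucleus. In pooled libraries, fewer cells with an RNA and less of that RNA per cell cannot be told apart.

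The active zone is the patch of presynaptic membrane where synaptic vesicles dock, are primed and fuse. RIM proteins (Rims1, Rims2) bind Rab3 on the vesicle and calcium channels in the membrane and recruit the Munc13 priming factors (Unc13a, Unc13b, Unc13c). Bassoon (Bsn) and Piccolo (Pclo) are giant scaffolds of the surrounding cytomatrix, and the ELKS proteins (Erc1, Erc2) link RIM, liprins and the scaffolds. In neurons these proteins act in axon terminals, whereas Erc1 is found in many tissues; introns of all of these genes are normally removed in the nucleus.

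The lists held 1007530 (rat dendrites) to 17858440 (BAT) intron reads, which is the part of each library that passed the filters and not its depth, so levels are given as reads per 1000000 reads of the list (RPM). Of 7 neuron markers, Map2 and Gad1 among them, 4 had an intron listed in mouse dendrites, 5 in mouse somas, 3 in rat dendrites, 4 in rat somas, 3 in BAT and 1 in cardiomyocytes, and Map2 had none anywhere. The BAT list held 6 of 7 brown fat markers at 7847 RPM in all and also 5 of 7 cardiomyocyte markers at 2779 RPM, and the cardiomyocyte list held 6 of 7 cardiomyocyte markers at 26322 RPM and 3 of 7 brown fat markers at 287 RPM. Most of the 2779 RPM in BAT came from a single marker, which was the cardiomyocyte marker that the cardiomyocyte list lacked. The mouse dendrite list held 5 of 7 cardiomyocyte markers at 519 RPM and 4 of 7 brown fat markers at 208 RPM, beside neuron markers at 1083 RPM. In mouse somas these sums were 10.24, 1.08 and 26905 RPM, in rat dendrites 77.4, 94.3 and 1883 RPM and in rat somas 59.7, 7.16 and 6428 RPM. Gad1 alone gave 24639 of the 26905 RPM in mouse somas. The part of other cell types in the levels below was not tested. In the 4 neuronal lists the 7 glia markers summed to between 56.0 and 140.1 RPM. A gene or intron that is not listed may still have had reads, because introns that failed the study's filters are left out of the lists.

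Contigs that recur between lists, a minority of the group's contigs in each list, give examples of its sequence. The following are contigs of up to 300 bases on the strand of the gene, 5′ to 3′, read from the mouse genome NCBIM37 (mm9), with the bases that the second list named also covered in capitals. They are examples of the 28 overlaps between mouse lists, shown because both lists covered them. Other overlaps met the same condition and are not printed, so the examples do not stand for the group. They lie in Rims1 intron 2 (chr1:22640492-22640738), Rims1 intron 3 (chr1:22633041-22633262), Rims1 intron 5 (chr1:22551840-22552060), Rims2 intron 15 (chr15:39337483-39337591), Erc1 intron 18 (chr6:119578010-119578261), Erc2 intron 12 (chr14:28913021-28913301) and Unc13a intron 9 (chr8:74184247-74184339). All but those of Rims2 and Erc2 are on the minus strand.
Rims1 intron 2, mouse dendrites (capitals, also mouse somas): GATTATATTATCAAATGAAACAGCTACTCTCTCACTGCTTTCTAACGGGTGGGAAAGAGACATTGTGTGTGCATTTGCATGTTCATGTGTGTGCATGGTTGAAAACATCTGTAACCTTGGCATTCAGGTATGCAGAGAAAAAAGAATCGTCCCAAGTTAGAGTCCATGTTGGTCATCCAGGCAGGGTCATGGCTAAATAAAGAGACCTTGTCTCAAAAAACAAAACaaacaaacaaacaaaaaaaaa
Rims1 intron 3, mouse dendrites (capitals, also mouse somas): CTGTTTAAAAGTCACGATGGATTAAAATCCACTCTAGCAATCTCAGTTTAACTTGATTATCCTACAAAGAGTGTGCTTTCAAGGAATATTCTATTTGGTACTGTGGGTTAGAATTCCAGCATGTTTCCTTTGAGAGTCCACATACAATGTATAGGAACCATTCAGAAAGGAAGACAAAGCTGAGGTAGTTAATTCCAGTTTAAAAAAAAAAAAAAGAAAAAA
Rims1 intron 5, mouse dendrites (capitals, also mouse somas): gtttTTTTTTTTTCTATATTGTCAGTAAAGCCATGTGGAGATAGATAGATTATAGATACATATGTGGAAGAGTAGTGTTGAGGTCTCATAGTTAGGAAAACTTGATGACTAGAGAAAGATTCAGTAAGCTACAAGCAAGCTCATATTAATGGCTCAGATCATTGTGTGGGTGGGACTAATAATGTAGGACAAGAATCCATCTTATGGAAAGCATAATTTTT
Rims2 intron 15, mouse dendrites (capitals, also mouse somas): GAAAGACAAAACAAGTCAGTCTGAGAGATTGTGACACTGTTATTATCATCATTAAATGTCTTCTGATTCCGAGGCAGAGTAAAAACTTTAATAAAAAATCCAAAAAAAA
Erc1 intron 18, mouse dendrites (capitals, also mouse somas): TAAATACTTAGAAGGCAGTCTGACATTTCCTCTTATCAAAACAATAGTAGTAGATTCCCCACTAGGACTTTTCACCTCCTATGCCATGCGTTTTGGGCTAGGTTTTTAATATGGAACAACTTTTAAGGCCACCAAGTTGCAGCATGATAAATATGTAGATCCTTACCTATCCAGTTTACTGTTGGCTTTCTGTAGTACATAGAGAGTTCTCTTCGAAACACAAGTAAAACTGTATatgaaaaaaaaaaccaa
Erc2 intron 12, mouse dendrites (capitals, also mouse somas): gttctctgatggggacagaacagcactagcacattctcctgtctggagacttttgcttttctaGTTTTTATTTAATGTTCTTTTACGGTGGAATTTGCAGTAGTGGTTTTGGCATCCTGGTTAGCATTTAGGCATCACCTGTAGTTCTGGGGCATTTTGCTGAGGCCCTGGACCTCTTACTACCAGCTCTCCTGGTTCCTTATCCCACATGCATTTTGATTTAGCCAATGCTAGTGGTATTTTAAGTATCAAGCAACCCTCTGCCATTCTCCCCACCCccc
Unc13a intron 9, mouse somas (capitals, also BAT): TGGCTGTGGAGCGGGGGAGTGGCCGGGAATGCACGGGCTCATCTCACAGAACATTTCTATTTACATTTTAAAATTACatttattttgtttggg

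All 241 contigs of the group in the 4 mouse lists lay inside annotated introns and none overlapped an annotated exon, which is how the lists were made. Some ran up to an exon: the Unc13c intron 14 contig of BAT reached the last base of its intron, and contigs of Unc13a intron 9 and Unc13c intron 7 lay 1 nt from the first base of theirs. Contigs were short beside their introns: the median was 298 nt (270 nt over all genes), from 58 to 3956 nt, and the contigs of a listed intron covered a median of 4.78% of it. An intron of the group held a single contig in 65.0% of cases, against 82.2% over all listed introns.

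Members were listed in 40 of 54 combinations of gene and list. The mouse dendrite list held 8 of the 9 genes (69% of the 12467 genes in any mouse list were in it), the mouse soma list 7 (47.3%), the BAT list 8 (82%) and the cardiomyocyte list 6 (49.8%). Of the rat lists, dendrites held 4 (78.5% of 5712 genes in either rat list) and somas 7 (59.4%). Bsn (94362 nt), which was in no mouse list, and Unc13a (45043 nt) are the shortest genes of the group, while the other 7 span 205921 to 856108 nt, and of the 948 coding genes of at least 200000 nt, 78.7%, 63.5%, 77.7% and 59.5% were in the mouse dendrite, mouse soma, BAT and cardiomyocyte lists. They are shares of annotated genes and cannot be set beside the shares above, which are of genes already in some mouse list.

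**Figure D1:**
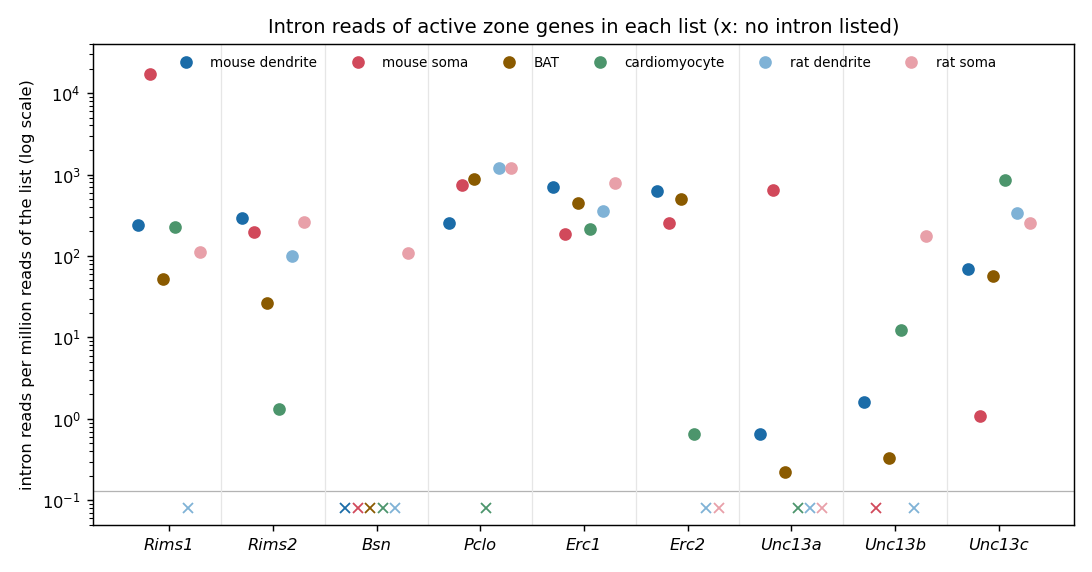
Intron reads of each gene, as RPM on a log scale, with 1 point per pooled list and no error bar because lists have no replicates; crosses under the line mark genes without a listed intron. Rims1 in mouse somas stands at 17102 RPM, above every other gene and list shown.

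Requiring many reads changed the picture of which genes carried intron sequence. With a single intron at 8 or more on the log2 scale of reads, 5 members were left in mouse dendrites (23.5% of listed genes passed this limit), 5 in mouse somas (18.7%), 5 in BAT (40.2%), 3 in cardiomyocytes (42.9%), 3 in rat dendrites (15.8%) and 4 in rat somas (30.4%). The median listed member had 768 reads in mouse dendrites (78 over all genes), 475 in mouse somas (46), 969 in BAT (169), 1368 in cardiomyocytes (158), 348.5 in rat dendrites (32) and 529 in rat somas (54). These reads are summed over all introns of a gene, and 7 members span at least 200000 nt in mouse. The medians over all genes are not matched for gene length. The group as a whole took 0.219% of listed reads in mouse dendrites, 1.91% in mouse somas, 0.197% in BAT, 0.131% in cardiomyocytes, 0.200% in rat dendrites and 0.289% in rat somas. The mouse soma values hold Rims1 by the choice of the group. It gave 31732 of the group's 35495 reads there and was among the 5 members past the limit.

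Rims1, the RIM protein that organises docking and priming, had 742 reads in mouse dendrites (95% Poisson interval 690 to 797), 31732 in mouse somas (31384 to 32083), 937 in BAT (878 to 999), 2752 in cardiomyocytes (2650 to 2857) and 232 in rat somas (203 to 264), and no listed intron in rat dendrites. Intervals here cover counting error only, since amplified reads are not independent molecules. As levels these were 240.4, 17102, 52.5, 226 and 111 RPM, so mouse somas were far above every other list, mouse dendrites and cardiomyocytes lay close together, and BAT was lowest among the listed. In mouse somas Rims1 ranked 2nd of 5895 genes by reads and held 89.4% of the reads of the group, against rank 1039 of 8607 in mouse dendrites and 2609 of 10220 in BAT. The soma list pools 3 cells, and whether 1 cell gave most of these reads cannot be read from it.

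The Rims1 reads of mouse somas came mainly from the 5′ part of the transcript. Intron 2 held 14024 reads in 18 contigs (44.2% of the gene's reads), intron 3 held 10136 in 3 contigs and intron 5 held 2799 in 4 contigs, and together these introns held 85.0% of the reads, in 25 contigs spread over 173842 nt (chr1:22551674-22725515). Intron 3, the 8th most read intron of the list, was the most densely covered at 150.5 reads per 50 nt of contig. The 3′ introns were lower but not empty, with 1364 reads in intron 27 and 1165 in intron 26. Rims1 contigs of somas were long: the median was 587 nt and the longest 3956 nt, against medians of 241 nt in mouse dendrites and 231 nt in BAT, and 15 of 42 were at most 400 nt, the length the study accepted in cells with a nucleus.

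**Figure D2:**
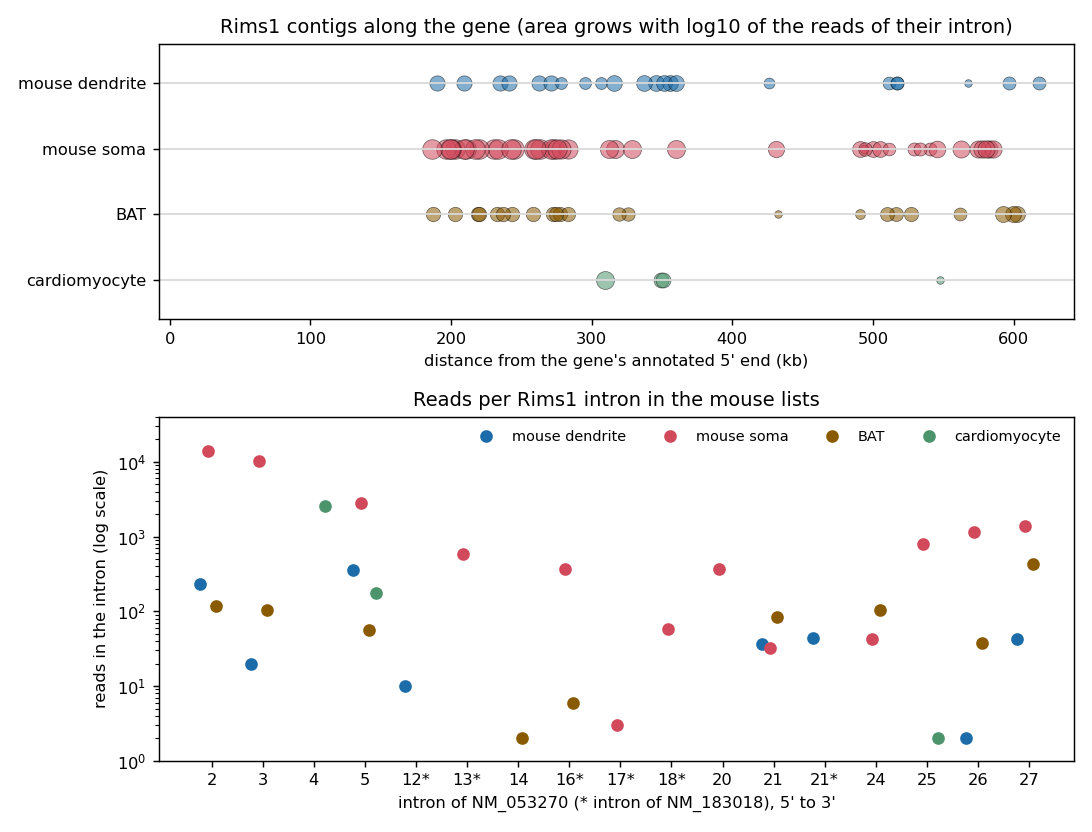
Top, Rims1 contigs of the 4 mouse lists by distance in kb from the annotated 5′ end of the gene, the area of each circle growing with log10 of the reads of its intron. Bottom, reads per Rims1 intron on a log scale, 1 point per list: mouse somas lead in introns 2, 3, 5, 26 and 27, and cardiomyocytes in intron 4 with 2574 reads.

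Each mouse list had another leading Rims1 intron. Mouse dendrites led with intron 5 (358 reads, 48.2%), followed by intron 2 (230) and intron 21 of the alternative transcript NM_183018 (44). BAT led with intron 27 (426 reads, 45.5%), followed by intron 2 (116) and introns 3 and 24 (104 each), and cardiomyocytes led with intron 4 (2574 reads, 93.5%), a short intron of 2266 nt of which a single contig of 1547 nt covered 68.3%. Rims1 intron 4 was in no other list. Intron 5 was in all 4 mouse lists, with 358, 2799, 56 and 176 reads in mouse dendrites, mouse somas, BAT and cardiomyocytes, and introns 2, 3, 21, 26 and 27 were in mouse dendrites, mouse somas and BAT. In rat somas the only listed intron was intron 18, with a single contig of 309 nt (chr9:21232641-21232949, rn4).

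The genes whose levels over the 6 lists lay nearest to those of Rims1, by Euclidean distance of log2(RPM + 1) over the 4484 genes listed in both species, were Kidins220 (2.54), Cadps (2.99), Plxdc2 (3.48), Gtf2e2 (3.86) and Fyttd1 (5.15), where the median gene lay at 16.4. A gene not in a list counted as 0 there, as Rims1 did in rat dendrites, so a high level in mouse somas and absence from rat dendrites were fixed by this choice. In mouse somas the 5 ranged from 703 RPM (Fyttd1) to 10904 RPM (Plxdc2). Cadps encodes the dense-core vesicle priming factor CAPS1. It had 329 RPM in mouse dendrites, 4791 in mouse somas, 31.7 in BAT, 741 in cardiomyocytes and 291 in rat somas.

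Rims2, the paralogue of Rims1, did not share its soma level. It had 911 reads in mouse dendrites, 361 in mouse somas, 468 in BAT, 16 in cardiomyocytes, 100 in rat dendrites and 541 in rat somas, or 295, 195, 26.2, 1.31, 99.3 and 258 RPM. Neurons were above BAT in both species' lists, and cardiomyocytes were lowest. Intron 5, the longest of the introns with Rims2 contigs (91376 nt), held 869 of the 911 dendrite reads (95.4%) in 10 contigs, but only 11 reads in mouse somas and 167 in BAT. Intron 15 was also in these 3 lists, with 26, 126 and 16 reads, and mouse somas led with intron 20 (164 reads). In rats, intron 3 led in dendrites (45 reads) and intron 14 in somas (198).

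Bsn, the Bassoon gene, was listed once, in rat somas, where intron 5 held 228 reads (199 to 260) in a contig of 434 nt (chr8:113376891-113377324, rn4), or 109 RPM. Its mouse gene has 11 annotated introns with a median of 710 nt and a longest of 50448 nt.

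Pclo, the gene of Bassoon's relative Piccolo, was the leading member in BAT and in both rat lists. It had 794 reads in mouse dendrites, 1377 in mouse somas, 15946 in BAT, 1219 in rat dendrites and 2512 in rat somas, and no listed intron in cardiomyocytes. The levels were 257, 742, 893, 1210 and 1199 RPM, so the rat lists were alike and BAT was above both mouse neuronal lists. In BAT, intron 9 held 12393 reads (77.7%) at 318 reads per 50 nt, the densest intron of the group, and intron 22 held 3051 and intron 24 held 365. In the neuronal lists other introns led: intron 2 held 323 reads in mouse dendrites, 1362 in mouse somas (98.9% of the gene) and 859 in rat dendrites, and intron 12 held 1655 in rat somas. Pclo intron 9 had 123 reads in mouse dendrites and was not in the soma list. The BAT list held 3 of the 7 neuron markers, at 431 RPM in all, and Map2 and Gad1 were not among them. The part that neuronal RNA may have in the BAT values was not tested.

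**Figure D3:**
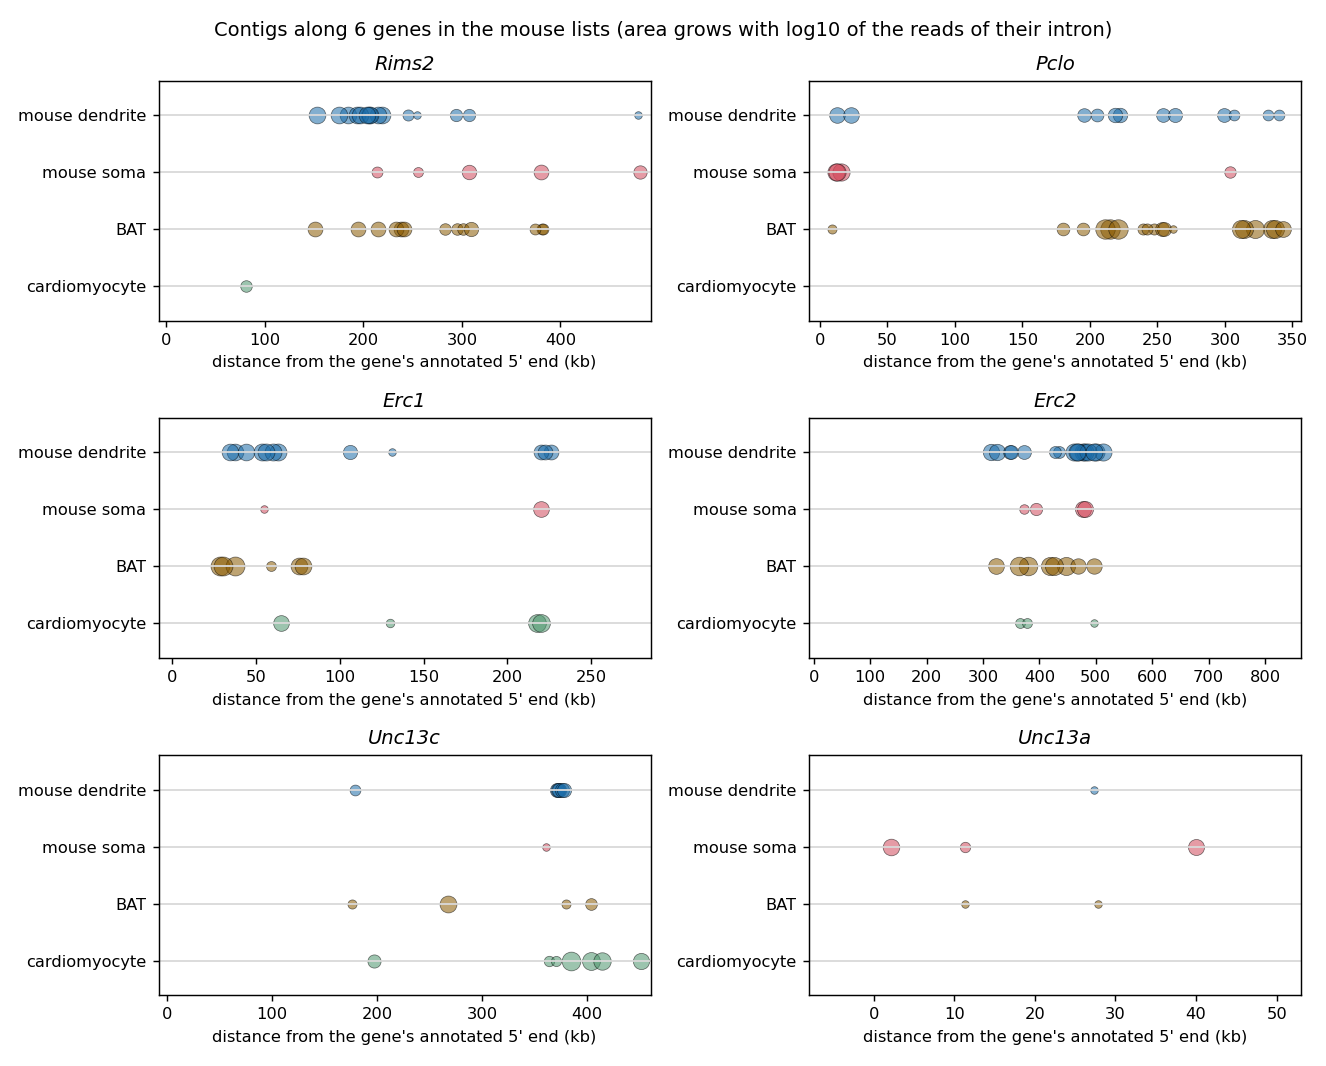
Contigs of Rims2, Pclo, Erc1, Erc2, Unc13c and Unc13a in the 4 mouse lists, by distance in kb from the annotated 5′ end of the gene (horizontal axes differ); the area of each circle grows with log10 of the reads of its intron. The contigs of Erc2 all lie in the middle of the gene, and those of Pclo in mouse somas lie near its 5′ end apart from 1 contig of intron 22.

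Erc1, the widely expressed ELKS gene, was the only member besides Rims2 and Unc13c in all 6 lists. It had 2167 reads in mouse dendrites, 346 in mouse somas, 7905 in BAT, 2585 in cardiomyocytes, 356 in rat dendrites and 1637 in rat somas, or 702, 186, 443, 212, 353 and 782 RPM, a narrow range beside that of Rims1. It was the leading member in mouse dendrites with 32.03% of the group's reads, from introns 3 (1056) and 2 (833) of transcript NM_178085. In BAT, intron 2 of the same transcript held 7001 reads (88.6%). Intron 18 of NM_053204 held 172 reads in mouse dendrites, 344 of the 346 in mouse somas and 2239 in cardiomyocytes (86.6%), and the contigs of these lists overlapped within the sequence printed above. In rats, intron 14 led in dendrites (282 reads) and intron 12 in somas (1428).

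Erc2, the ELKS gene of brain, had 1932 reads in mouse dendrites, 475 in mouse somas, 8911 in BAT and 8 in cardiomyocytes, and no listed intron in rats. As levels these were 626, 256.003, 499 and 0.656 RPM: mouse dendrites and BAT were close together and cardiomyocytes were far below. Introns 7 and 12 were in all 4 mouse lists. Intron 12 led in both neuronal lists with 1220 and 445 reads, against 273 in BAT and 2 in cardiomyocytes, and intron 7 led in BAT with 5021 reads, against 78, 5 and 6 in mouse dendrites, mouse somas and cardiomyocytes. Intron 11 followed in BAT with 3261 reads and intron 6 in mouse dendrites with 614.

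Unc13a, which encodes Munc13-1, the main vesicle priming factor of excitatory synapses, was seen almost only in mouse somas. It had 2 reads in mouse dendrites, 1202 in mouse somas and 4 in BAT, and was in neither the cardiomyocyte list nor the rat lists. Intron 1 held 746 soma reads and intron 39 held 448, each in a single contig (768 and 904 nt), and intron 9 held 8 in the contig printed above. Per kb of intron the gene stood at 17.8 RPM in mouse somas, 2nd in the group after Rims1 (27.2) and above Pclo (2.26), Erc1 (0.697), Rims2 (0.407) and Erc2 (0.301). Both large soma contigs exceeded 400 nt, and with introns that have a contig of at most 400 nt Unc13a kept 8 of its 1202 reads.

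Unc13b (Munc13-2) had few reads outside rat somas. It had 5 in mouse dendrites, 6 in BAT, 151 in cardiomyocytes (intron 21) and 366 in rat somas, where intron 2 held 364, and it was not listed in mouse somas or rat dendrites. Unc13c (Munc13-3), best known from cerebellum, had 212 reads in mouse dendrites, 2 in mouse somas, 1001 in BAT, 10414 in cardiomyocytes, 341 in rat dendrites and 529 in rat somas, or 68.7, 1.08, 56.1, 854, 338 and 253 RPM. It was thus the leading member in cardiomyocytes, with 65.4% of the group's reads, and the lowest of those listed in mouse somas. Cardiomyocyte reads came from the 3′ introns 22 (5771), 26 (2439) and 27 (1613), each a single contig, while mouse dendrites led with introns 21 (102) and 22 (100) and BAT with intron 14 (975). With introns that have a contig of at most 400 nt, 544 of the 10414 cardiomyocyte reads were left. The cardiomyocyte list held 1 of the 7 neuron markers, at 3.44 RPM.

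Dendrites and somas were compared gene by gene as the log2 ratio of RPM, for genes in both lists. The members spread widely over the mouse distribution. Relative to somas, dendrites were at −9.97 for Unc13a (95% interval from the exact binomial −13.0 to −8.11), −6.15 for Rims1 (−6.26 to −6.05), −1.53 for Pclo (−1.66 to −1.40), 0.60 for Rims2 (0.42 to 0.78), 1.29 for Erc2 (1.14 to 1.44), 1.91 for Erc1 (1.75 to 2.08) and 5.99 for Unc13c (4.12 to 9.05). Thus Unc13a, Rims1 and Pclo were at least 2-fold higher in somas, as were 35.5% of the 4739 genes in both lists, and Erc2, Erc1 and Unc13c were at least 2-fold higher in dendrites, as were 42.7%; the median gene was at 0.27. From the soma end of the 4739 genes, Unc13a was 7th and Rims1 194th. The Unc13a and Unc13c ratios each rest on a list with 2 reads, and Rims1 on reads that chose it.

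**Figure D4:**
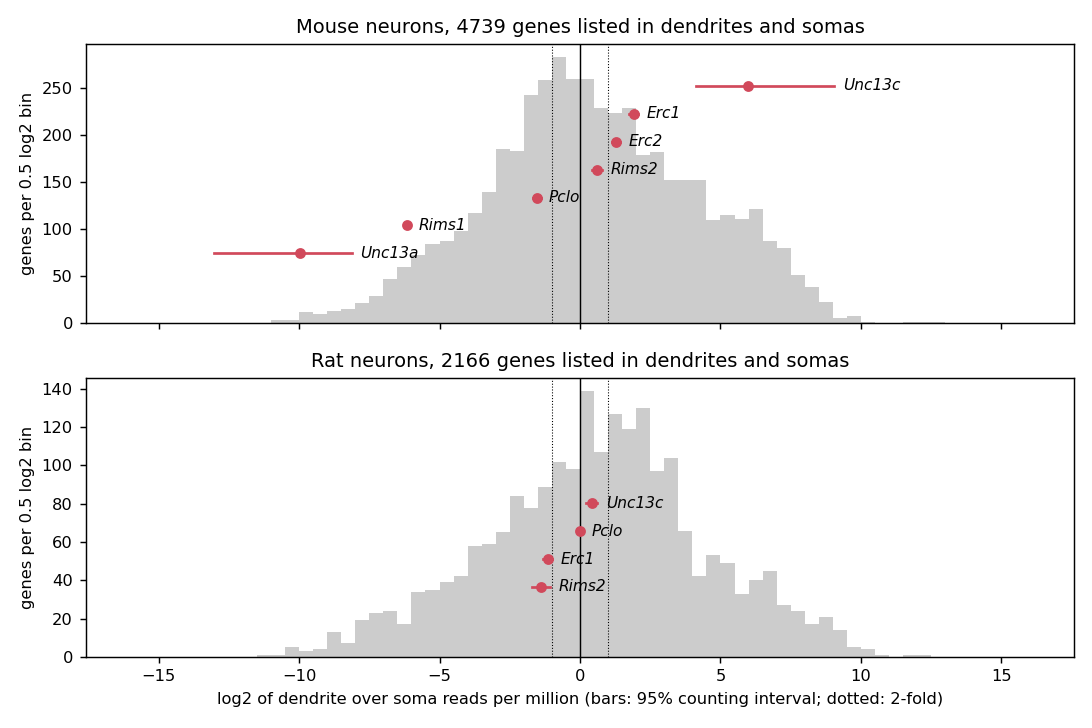
Grey, number of genes per bin of the log2 ratio of dendrite over soma RPM for all genes in both lists (4739 in mouse, 2166 in rat). Red, members with 95% counting intervals, placed at heights that carry no meaning; in mouse they run from −9.97 (Unc13a) to 5.99 (Unc13c) and in rat from −1.38 (Rims2) to 0.42 (Unc13c).

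Rims1 was also described without its leading introns. The gene was 71.1-fold higher in somas over all its introns, 57.5-fold without intron 2, 25.6-fold without introns 2 and 3 and 59.3-fold without introns 2, 3 and 5, sets that were chosen after their values were seen. Intron by intron, the difference was uneven. Of the 6 introns in both lists, intron 26 was 969-fold higher in somas (2 against 1165 reads), intron 3 843-fold, intron 2 101-fold, intron 27 54.0-fold and intron 5 13.0-fold, while intron 21 of NM_053270 (36 against 32 reads) was 1.48-fold higher in somas.

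In rats, the 4 members in both lists lay nearer to 0. Relative to somas, dendrites were at −1.38 for Rims2 (−1.70 to −1.07), −1.15 for Erc1 (−1.31 to −0.98), 0.01 for Pclo (−0.09 to 0.11) and 0.42 for Unc13c (0.22 to 0.62). Rims2 and Erc1 were at least 2-fold higher in somas, as were 32.3% of 2166 genes, and no member was at least 2-fold higher in dendrites, as were 47.1%; the median gene was at 0.73. Scaling by all reads of the libraries instead of listed reads shifts every ratio by 0.48 in mouse and by −0.45 in rat. Under it mouse Rims2 was at 1.08, where the median gene was at 0.74. The share of all genes past 2-fold at this scaling is not given. The rat values of Pclo (−0.43) and Unc13c (−0.02) fell below 0, where the median gene was at 0.29. With introns that have a contig of at most 400 nt, mouse Rims1 was at −5.69, Unc13a at −2.98 (8 soma reads) and Erc1 at 9.03 (2 soma reads). In rats Rims2 was then at −0.63, Erc1 at −0.74 and Pclo at 3.03. This setting keeps all reads of such an intron, those of its longer contigs included. Rims1 intron 2 thus kept its 14024 soma reads, though only 5 of its 18 contigs were at most 400 nt.

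In the 28 combinations of gene and list at 8 or more on the log2 scale of reads, the leading intron held from 35.7% to 99.5% of the gene's reads, and at least 50% in 20 of them (71.4%). Over all genes with that many reads and at least 2 listed introns, as all of these had, the leading intron held at least 50% in 87.6% of 9811 combinations. Which intron led differed between lists. Over the 39 pairs of a member and 2 mouse lists holding it, the leading intron was the same in 5 (of introns tied in reads the lower number was taken, and Unc13a would add 1 pair if its tied introns 9 and 29 in BAT, with 2 reads each, were both counted), whereas over all genes it was the same in 33.2% of 30727 pairs under the same rule. Those 5 were Pclo intron 2 and Erc2 intron 12 in mouse dendrites and somas, Rims2 intron 5 in mouse dendrites and BAT, Erc1 intron 18 in mouse somas and cardiomyocytes, and Erc2 intron 7 in BAT and cardiomyocytes. In rats, none of the 4 members in both lists had the same leading intron, against 38.7% of 2166 genes. In both species the shares over all genes include genes with a single listed intron. They are not matched to the members by introns listed or by reads, and Erc2 intron 7 led in cardiomyocytes with 6 reads.

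The same introns nevertheless recurred. Of the 65 member introns in any mouse list, 34 were in at least 2 lists (39.5% of 46599 introns over all genes were) and 15 were in at least 3 (13.8%), namely introns 2, 3, 5, 21, 26 and 27 of Rims1, 5 and 15 of Rims2, 2 and 22 of Pclo, 3 of NM_178085 and 18 of NM_053204 for Erc1, 7 and 12 of Erc2 and 22 of Unc13c. Listing was also counted by intron length. Among annotated introns of at least 1000 nt, 19.3% of the group's 171 had a contig in mouse dendrites (14.1 to 25.9; 19.1% over all listed genes), 15.2% in mouse somas (10.6 to 21.3; 10.025%), 20.5% in BAT (15.1 to 27.1; 25.6%) and 9.94% in cardiomyocytes (6.30 to 15.3; 11.1%). Rims1, whose soma reads built the group, held 13 of the 29 member introns listed in mouse somas, so the soma share is a description. The intervals treat introns of a gene as independent, which they are not. None of the 5 member introns of 100000 nt or more had a contig in any mouse list, and 16.3% of such introns over all genes did.

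Overlap at the level of sequence was rarer. Contigs of a list that overlapped a contig of another list of the same species made up 15 of 85 in mouse dendrites (17.6%, 28.3% over all genes), 20 of 61 in mouse somas (32.8%, 47.4%), 12 of 75 in BAT (16.0%, 24.6%), 3 of 20 in cardiomyocytes (15.0%, 46.2%), 3 of 18 in rat dendrites (16.7%, 15.1%) and 3 of 30 in rat somas (10%, 20.9%). The 31 overlapping pairs included 11 in Rims1 introns 2, 3 and 5, and by overlap 13 member introns instead of 34 were shared between mouse lists.

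Several of these pairs ended at nearly the same base. The 3′ ends of 12 of the 31 pairs lay within 30 nt of each other (44.1% of 22393 pairs over all genes did), and those of 5 within 5 nt (28.5%); 5′ ends lay within 30 nt in 4 pairs (31.6%). A pair in Rims1 intron 2 was the closest at both ends together, with mouse somas at chr1:22708533-22708866 and BAT at chr1:22708532-22708866, the same 5′ end and 3′ ends 1 nt apart in libraries from other strains and tissues. Its ends are shown, with 50 bases inside the longer contig in capitals and 50 bases outside it in lower case (chr1:22708817-22708916 and chr1:22708482-22708581, minus strand).
Rims1 intron 2, 5′ end: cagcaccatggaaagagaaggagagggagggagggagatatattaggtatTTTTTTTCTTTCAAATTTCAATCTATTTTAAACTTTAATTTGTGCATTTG
Rims1 intron 2, 3′ end: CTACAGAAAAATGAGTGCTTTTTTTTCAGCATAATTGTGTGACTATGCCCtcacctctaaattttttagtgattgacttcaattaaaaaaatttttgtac

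Of the 10 mouse pairs with 3′ ends within 30 nt, 8 had a run of at least 6 A within 50 bases of the end (AAAAAA on the gene's strand), as in the contigs of Rims1 intron 2, Rims2 intron 15 and Erc1 intron 18 printed above, and 40.3% of 9094 such pairs over all genes had one. The Erc2 pair in intron 12 and the Unc13a pair in intron 9 had none. Of the 18 mouse pairs with 3′ ends farther apart, 5 had such a run (25.9% over all genes). Over all mouse contigs, 87 of 241 of the group had such a run near the 3′ end (36.1%), against 27.9% over all genes. The aRNA method primes with oligo-dT, and reads were trimmed of terminal A and T before alignment. The part of priming or trimming in these ends was not tested.

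**Figure D5:**
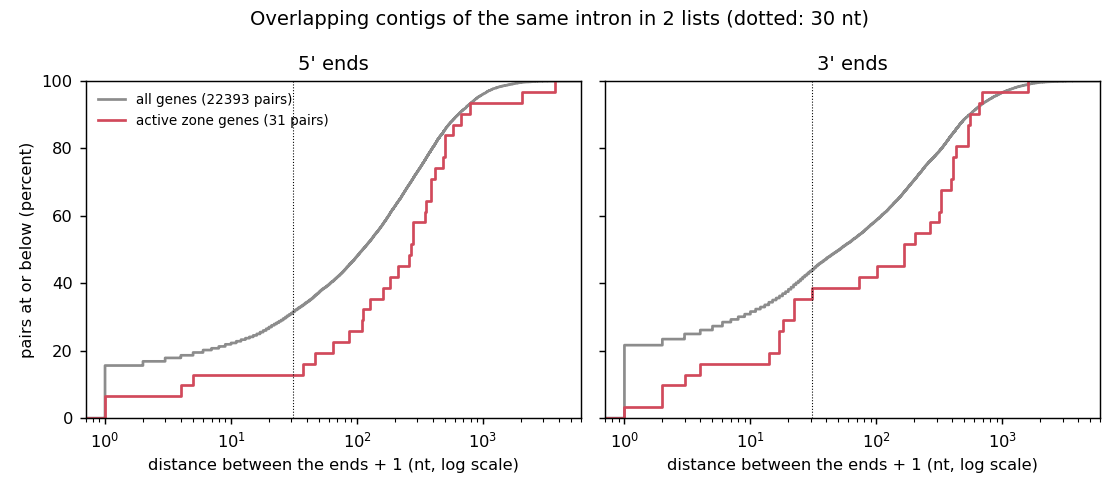
Cumulative percent of pairs of overlapping contigs against the distance between their 5′ ends (left) and 3′ ends (right), on a log axis of distance + 1, for the 31 member pairs (red) and 22393 pairs of all genes (grey); the dotted line marks 30 nt. The red line lies below the grey one up to 500 nt for both ends.

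Longer tracts of A and T were searched on the gene's strand, list by list. A run of at least 10 A lay within 300 nt downstream of 4.71% of contigs in mouse dendrites (8.11% over all genes), 18.0% in mouse somas (18.6%), 4% in BAT (7.36%) and 2 of 20 contigs in cardiomyocytes (9.53%). A run of at least 10 T lay within 300 nt upstream of 7.06% in mouse dendrites (12.6%), 3.28% in mouse somas (11.4%), 9.33% in BAT (8.95%) and 0 of 20 in cardiomyocytes (7.61%). Contigs of the group were richer in A and T: their median GC content was 37.0% in mouse dendrites (40.8% over all genes), 37.7% in mouse somas (41.5%), 36.7% in BAT (41.4%) and 35.1% in cardiomyocytes (40.9%). The letters AATAAA, the commonest poly(A) signal, stood in the last 50 bases of 32 contigs (13.3%, 8.86% over all genes), after introns with a database poly(A) site had been removed by the authors. Such matches are descriptions of sequence.

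The partners of the group were described from a set of 16 genes (Rims3, Rims4, RIM-binding proteins, liprins, Cask, Apba1, the Rab3 genes and the calcium channel subunits Cacna1a and Cacna1b). In mouse dendrites 11 were listed at 1110 RPM in all, led by the liprin gene Ppfia2 (1637 reads), Cask (600) and Rimbp2 (318). In mouse somas 13 were listed at 8707 RPM, led by Cacna1b, the N-type calcium channel (8056 reads), Ppfia2 (3401) and Rab3c (1587). BAT held 12 at 2221 RPM, of which Ppfia2 alone had 34436 reads, Cask 2894 and Rimbp2 729, and cardiomyocytes held 5 at 120.2 RPM, led by Cask (947), Ppfia4 (488) and Ppfia2 (24). Rat dendrites held 6 at 1596 RPM, led by Cask (1058), Ppfia2 (387) and Ppfia4 (78), and rat somas 8 at 4843 RPM, led by Ppfia2 (4635), Cacna1b (2543) and Rimbp2 (1174). Rab3a, the main vesicle Rab, was in no list. Of all genes in any mouse list, 69% were listed in mouse dendrites, 47.3% in mouse somas, 82% in BAT and 49.8% in cardiomyocytes. Of genes in either rat list, 78.5% were listed in dendrites and 59.4% in somas. The set itself was not limited to genes in some list.

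Another set held 23 genes of vesicle fusion. In mouse dendrites 13 were listed at 609 RPM, led by Cadps (1015 reads), the Rab3 effector Rph3a (238) and the SNARE-disassembly ATPase Nsf (169), and in mouse somas 12 at 11959 RPM, led by Cadps (8889), the calcium sensor Syt1 (8662) and Snap25 (1735). BAT held 13 at 759 RPM, led by Syt1 (8127), Snap25 (2754) and Nsf (1528), and cardiomyocytes 7 at 1049 RPM, led by Cadps (9037), Nsf (3598) and Unc13d (76). Rat dendrites held 9 at 1123 RPM, led by Syn2 (400), Stxbp5 (382) and Nsf (155), and rat somas 11 at 5393 RPM, led by Syt1 (4520), Syn2 (3388) and Snap25 (932). Cplx1, Cplx2, Syn1 and Vamp1 were in none of the 6 lists. The shares over all genes beside these counts are those given for the partners, from 47.3% in mouse somas to 82% in BAT.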

How the data were processed

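Per the labels and the methods of the study, aRNA from dendrites, somas, BAT cells and cardiomyocytes was sequenced in reads of 50 nt that were trimmed of adapter, poly-A and poly-T and aligned with RUM to mouse mm9 or rat rn4 (builds named in the submitters' processing notes). The authors dropped introns that overlapped predicted exons (GENSCAN, TWINSCAN) or poly(A) sites (PolyA_DB2), joined reads within 500 bp into contigs, and deposited 1 list per condition with a read count for each intron, libraries pooled. In cells with a nucleus the paper kept only contigs of at most 400 nt, while the lists of those cells also hold longer ones. The strand was not kept, so antisense RNA cannot be told apart. The study's text counts fewer BAT and cardiomyocyte cells than the labels list libraries, and which libraries entered the lists is not stated in the sources used here.

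Counts were taken once per transcript and intron with Python 3.11.15, pandas 2.3.3, numpy 2.4.6, scipy 1.17.1 and matplotlib 3.10.9, scaled to 1000000 reads of the list, and given exact Poisson, exact binomial or Wilson 95% intervals, which cover counting error only. The Wilson intervals also treat the introns of a gene as independent. Levels were set side by side across lists on this scale, with no test. Distances to Rims1 used a pseudocount of 1 RPM. The scripts were tested on simulated data. Mouse contigs were placed in introns of the NCBIM37 annotation, and rat sequence was not used here. The members and gene lists were chosen with earlier results of these data known. All 9 members are named, with at most 3 leading introns a list, introns in 3 or more mouse lists, the 3 most read genes of each set in each list, and the 5 genes nearest to Rims1. The values of 1 marker gene and the sequence of 1 contig are not reported here.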

Additional observations from a re-analysis of the deposited data

Results flagged for a closer look

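Members whose dendrite and soma levels stood in opposite order in mouse and rat are given here. The difference between the species was not tested, since each list pools its libraries. For Rims2 the log2 ratio of dendrite over soma RPM (reads per 1000000 reads of the list) was 0.60 in mouse and −1.38 in rat. For Pclo it was −1.53 in mouse and 0.013 in rat, where the counting interval of the rat value spans 0. Per 1000000 reads of the libraries, Pclo was at −1.05 in mouse and −0.43 in rat, in the same order in both species, and with introns that have a contig of at most 400 nt at −2.10 in mouse and 3.03 in rat. For Erc1 it was 1.91 in mouse and −1.15 in rat.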

How the results depend on the processing

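Of 113 values computed under another setting, 71 stayed within 1.5 times the count reported or within the 95% counting interval of the ratio or share reported, 40 moved farther and 2 changed sign. No paired analysis was possible because each list pools its libraries and the labels give no replicate numbers that columns carry, and for the same reason no library could be left out. With 1 intron at 8 or more on the log2 scale of reads, members numbered 5 in mouse dendrites, 5 in BAT, 3 in cardiomyocytes and 4 in rat somas. With introns that have a contig of at most 400 nt, the summed reads of the group were 21445 in mouse somas, 3331 in cardiomyocytes, 1030 in rat dendrites and 693 in rat somas, and 1 rat member was at least 2-fold higher in dendrites and 0 in somas, by the ratio of counts with no test. Per 1000000 reads of the libraries, rat Pclo was at −0.43 and rat Unc13c at −0.024. By overlap of contigs 13 introns were shared between mouse lists. Of all annotated introns of the group, 13.1% had a contig in mouse dendrites (12.6% over all listed genes), 10.8% in mouse somas (6.87%) and 13.9% in BAT (19.5%), and of those of at least 1000 nt 19.3%, 15.2% and 20.5%. The soma shares include the introns of Rims1, whose soma reads built the group. Over the 4 mouse lists together, T tracts of at least 10 bases lay upstream of 6.22% of contigs (10.04% over all genes) and those of at least 8 bases upstream of 11.2% (15.6%). Within 5 nt, a distance chosen after seeing the data, 5 pairs shared a 3′ end. The cause of these shifts was not tested beyond what each setting removes. Depth limits what an absent gene means, since the lists leave out introns that failed the filters.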
